A study of Mus musculus with 6 samples.

Results

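OCT4 binding was compared between Esrrb-GFP medium and Esrrb-GFP negative embryonic stem cells (ESCs), using the lists of OCT4-bound regions from 1 ChIP-Seq library per population. A region was taken as bound where its exact chromosome, start and end stood in the list. By this rule 16754 of the 23767 distinct regions in the 6 lists of the series were bound by OCT4 in medium or negative cells. Of these, 8079 were listed in both populations (shared, or kept), 6385 were listed in medium and not in negative cells (missing, or lost) and 2290 in negative and not in medium cells (new in negative).

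OCT4, encoded by *Pou5f1*, is a POU domain transcription factor that is needed for pluripotency and is present in both naive and primed cells. It binds the octamer motif, and together with SOX2 it binds a composite Oct-Sox motif. ESRRB, NANOG, KLF2, KLF4, KLF5 and TFCP2L1 belong to the naive pluripotency network of mouse ESCs, which is lost as cells move toward differentiation, while OCT4 and SOX2 continue to be made for longer.

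The cells were E-GFPd1 ESCs, a clonal line derived from the male mouse line E14Tg2a, in which a destabilised GFP was placed downstream of the *Esrrb* coding sequence, so that fluorescence follows the activity of that gene. All fractions carried this reporter and were grown in LIF and serum. Cells were fixed and sorted by fluorescence. The Esrrb-GFP high gate took the brightest 10%, the medium gate the 15% next to the negative cells, and the third gate the negative cells (called low in 1 label field). Each library was made from 3 pooled ChIPs, so there was 1 library per factor and fraction (6 in all, OCT4 and NANOG), no spread between replicates and no test between conditions. The high fraction and the NANOG lists are used here to describe the OCT4 regions. The sorted cells could not be checked against marker genes, because no expression values were part of these data.

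The lists held 14464 OCT4 regions in medium and 10369 in negative cells, with no score, signal or read number. The authors listed a region in a population that reached at least 50% of the strongest signal seen there after scaling for depth, so a region absent from a list may have had weaker signal, and the values on either side of that threshold could not be seen. The depth of each library is unknown, and fewer cells with a bound region cannot be told apart from less binding per cell. Shares are given with 95% Wilson intervals and differences of shares with 95% Newcombe intervals. Both cover counting error over regions only, and regions are not replicates of a condition.

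The regions below show the sequences on which the motif results turn, for named genes of each class. They were read from the plus strand of the mouse assembly mm9 (NCBIM37), 5′ to 3′, and none overlapped an annotated exon. Capitals mark matches to the octamer (ATGCAAAT), to the Oct-Sox motif with up to 2 mismatches or to the ESRRB motif (TCAAGGTCA with up to 1 mismatch), on either strand. The octamer forms part of the Oct-Sox motif, so a single stretch can hold both. The first 3 regions were kept in negative cells and hold an Oct-Sox match, the next 4 were missing although they hold an octamer or Oct-Sox match, and the 2 after those were missing and hold an ESRRB match. At *Dppa3* the Oct-Sox match lies over 100 bp from the centre. That region therefore counts below for its octamer only. The region at *Esrra* was kept and holds 2 ESRRB matches, and the last was listed in negative and not in medium.
Pou5f1, shared, upstream of the gene, chr17:35640952-35641091: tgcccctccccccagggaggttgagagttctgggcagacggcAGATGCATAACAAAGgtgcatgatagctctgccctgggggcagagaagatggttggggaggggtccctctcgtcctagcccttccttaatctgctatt
Sox2, shared, downstream of the gene, chr3:34552952-34553031: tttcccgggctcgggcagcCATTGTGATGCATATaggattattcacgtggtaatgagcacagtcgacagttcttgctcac
Dppa3, shared, upstream of the gene, chr6:122574452-122574731: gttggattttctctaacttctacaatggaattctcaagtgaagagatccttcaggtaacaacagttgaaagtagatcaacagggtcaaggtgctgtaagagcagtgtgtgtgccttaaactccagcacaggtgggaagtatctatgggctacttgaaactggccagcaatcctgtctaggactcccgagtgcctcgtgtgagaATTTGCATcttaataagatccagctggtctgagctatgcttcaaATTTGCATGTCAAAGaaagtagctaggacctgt
Lef1, missing from negative, intron, chr3:130820992-130821091: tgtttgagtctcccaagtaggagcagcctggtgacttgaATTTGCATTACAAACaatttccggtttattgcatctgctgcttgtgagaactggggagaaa
Esrrb, missing from negative, intron, chr12:87811892-87812131: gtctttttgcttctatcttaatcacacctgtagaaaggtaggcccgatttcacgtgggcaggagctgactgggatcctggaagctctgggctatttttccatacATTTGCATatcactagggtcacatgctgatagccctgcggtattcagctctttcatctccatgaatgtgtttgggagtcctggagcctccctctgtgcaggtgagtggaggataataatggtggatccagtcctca
Klf4, missing from negative, downstream of the gene, chr4:55532592-55532791: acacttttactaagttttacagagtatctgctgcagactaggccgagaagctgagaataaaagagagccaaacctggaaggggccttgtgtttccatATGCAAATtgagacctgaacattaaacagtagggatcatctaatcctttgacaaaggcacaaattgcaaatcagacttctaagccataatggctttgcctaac
Zfp42, missing from negative, downstream of the gene, chr8:44379372-44379471: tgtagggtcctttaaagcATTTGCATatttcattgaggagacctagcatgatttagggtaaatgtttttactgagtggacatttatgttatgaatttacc
Klf2, missing from negative, downstream of the gene, chr8:74858332-74858451: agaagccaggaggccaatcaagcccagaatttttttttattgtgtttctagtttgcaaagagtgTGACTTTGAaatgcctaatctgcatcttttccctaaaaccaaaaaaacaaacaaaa
Mybl2, missing from negative, upstream of the gene, chr2:162877932-162878131: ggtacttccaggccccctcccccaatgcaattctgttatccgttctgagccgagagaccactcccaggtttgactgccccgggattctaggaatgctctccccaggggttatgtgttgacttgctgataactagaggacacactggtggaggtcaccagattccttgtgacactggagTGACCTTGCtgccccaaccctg
Esrra, shared, upstream of the gene, chr19:6996612-6996871: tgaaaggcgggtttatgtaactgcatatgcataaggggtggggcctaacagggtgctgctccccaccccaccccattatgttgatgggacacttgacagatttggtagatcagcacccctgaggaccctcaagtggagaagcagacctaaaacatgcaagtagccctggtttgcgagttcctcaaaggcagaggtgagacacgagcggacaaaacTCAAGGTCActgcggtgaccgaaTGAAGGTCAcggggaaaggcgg
Sfrp2, new in negative, just upstream of the gene, chr3:83570172-83570231: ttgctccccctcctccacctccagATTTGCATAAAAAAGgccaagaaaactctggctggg

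Of the OCT4 regions of medium cells, 44.1% (95% interval 43.3 to 45.0) were missing from negative cells. In the other direction, 22.1% (21.3 to 22.9) of the regions listed for negative cells were new. Shared regions made up 48.2% of the regions of both populations together. The loss was larger than the gain in number, with 6385 regions against 2290. These shares are the background against which the groups of regions and genes described here were read.

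OCT4 binding in Esrrb-GFP high cells, which the rule did not use directly, differed between the classes. It is not independent of them, because the authors' threshold was set by the strongest population, which may be high. The part of that threshold in these differences was not tested. In high cells OCT4 was listed at 70.8% (69.8 to 71.8) of shared regions, at 63.8% (62.6 to 65.0) of missing regions and at 48.9% (46.8 to 50.9) of new regions. Of the medium regions that were also bound in high cells, 41.6% (40.6 to 42.6) were missing from negative, against 49.5% (48.0 to 50.9) of the medium regions not listed in high. Among new regions, 1119 were listed in high and negative but not in medium cells, and 1171 were listed in negative cells alone.

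**Figure D1:**
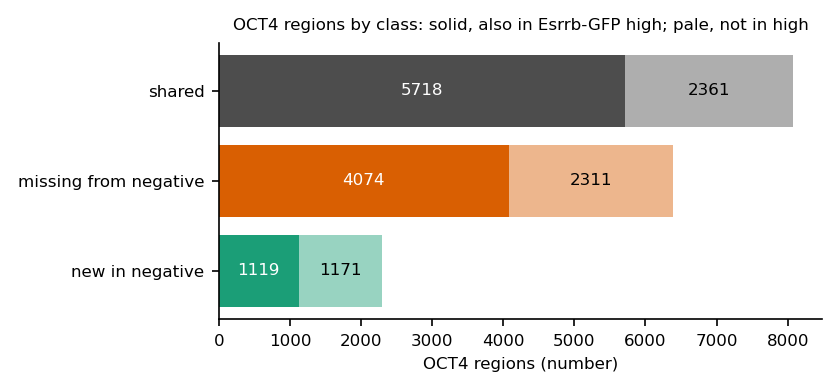
The number of OCT4 regions (horizontal axis) in each class, with regions also bound by OCT4 in Esrrb-GFP high cells in solid colour and those not listed in high in pale colour. Shared regions number 5718 and 2361, missing regions 4074 and 2311, and new regions 1119 and 1171, so the new class is the smallest and has the largest part outside the high list.

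New regions were narrower than the others. Their median width was 60 bp (interquartile range 40 to 100 bp), against 100 bp for shared (60 to 160 bp) and for missing regions (60 to 180 bp). The narrowest width in the lists, 40 bp, was found for 32.0% (30.1 to 33.9) of new regions, 18.9% (17.9 to 19.9) of missing regions and 15.5% (14.7 to 16.3) of shared regions. The share of negative regions that were new went from 37.0% (34.9 to 39.1) at 40 bp to 8.63% (7.39 to 10.0) at 200 bp or more. Missing regions showed no such order. The missing share of medium regions was 49.1% at 40 bp, lowest at 80 to 100 bp with 36.3% (34.5 to 38.1), and 46.7% at 200 bp or more. Widths are those of peaks merged over all 6 libraries, so they depend in part on how many libraries called a region, and their part in the differences between classes was not tested.

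The classes lay in similar parts of the genome. Of missing regions, 55.4% were intergenic, 40.4% intronic and 4.13% exonic, and the same shares were 56.9%, 38.6% and 4.48% for shared regions and 60.3%, 35.9% and 3.84% for new regions. The GC content of the 200 bp around the centre had medians of 49.5% in missing, 48.5% in shared and 48.0% in new regions, all above the medians of 43.5% to 45% of windows 10 kb downstream. Within 1 kb of a transcription start site lay 9.10% (8.42 to 9.83) of missing regions, 10.9% (10.3 to 11.6) of shared regions and 10.8% (9.62 to 12.2) of new regions. Accordingly, the missing share of medium regions was lower within 1 kb of a start site (39.7%, 37.2 to 42.2) than at 1 to 5 kb (47.1%, 45.1 to 49.0), and it was 40.3% (37.9 to 42.9) beyond 100 kb. New regions lay more often over 100 kb from any start site, 14.5% (13.1 to 16.0) against 11.0% (10.3 to 11.7) of shared regions, a difference of 3.53 points (1.98 to 5.17).

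Regions of the same class lay near each other. Where another OCT4 region lay within 10 kb, the nearest neighbour of a missing region was itself missing in 49.0% (47.1 to 50.9) of cases, against 40.3% (39.2 to 41.5) over all regions with a neighbour. The nearest neighbour of a new region was also new in 17.7% (15.3 to 20.5), against 12.4% (11.6 to 13.2) over all. Even so, 21.8% (20.8 to 22.8) of missing regions lay within 10 kb of a region that was kept. A median of 34240 bp separated new regions from the nearest OCT4 region of medium cells, and 9.74% (8.59 to 11.0) lay within 500 bp of one.

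NANOG, the homeodomain factor of the naive network, was listed in medium cells at 15.9% (15.0 to 16.8) of missing regions and 12.1% (11.4 to 12.9) of shared regions, a difference of 3.77 points (2.63 to 4.92). In Esrrb-GFP high cells NANOG was listed at 28.9% (27.8 to 30.1) of missing, 20.6% (19.8 to 21.5) of shared and 6.03% (5.12 to 7.08) of new regions. New regions were therefore poorest in NANOG, and 93.9% (92.8 to 94.8) of them stood in no NANOG list. Read the other way, OCT4 was missing from negative cells at 54.5% (52.0 to 57.0) of the medium regions with NANOG in high cells only, at 52.4% (50.1 to 54.7) of those with NANOG in high and medium, and at 41.5% (40.5 to 42.4) of those in no NANOG list. The few medium regions at which NANOG was listed in negative cells had the lowest share, with 18 of 97 missing, or 18.6% (12.1 to 27.4). The order held in regions with and without OCT4 in high cells, a status that is not independent of the classes. Where OCT4 was bound in high, the missing share was 50.6% (48.9 to 52.4) with NANOG in high or medium cells and 37.3% (36.2 to 38.5) without. Where it was not, the shares were 64.5% (59.9 to 68.9) and 47.9% (46.4 to 49.4).

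Octamer and Oct-Sox matches were less frequent in missing regions than in the regions bound in negative cells. Either motif was found within 100 bp of the centre of 19.8% (18.9 to 20.7) of shared regions, 18.6% (17.1 to 20.2) of new regions and 11.1% (10.3 to 11.9) of missing regions. Windows 10 kb downstream held either in 1.52% (1.35 to 1.72). Missing regions differed from shared regions by -8.69 points (-9.85 to -7.53), whereas the difference between new and shared regions, -1.16 points (-2.94 to 0.690), had an interval that included 0. The Oct-Sox motif alone was found in 11.4% (10.7 to 12.1) of shared, 9.65% (8.51 to 10.9) of new and 5.15% (4.64 to 5.72) of missing regions, against 0.275% downstream. The exact octamer was found in 11.2%, 11.0% and 7.20%, respectively, against 1.32% downstream. Of the sequences printed above, those at *Pou5f1* and *Sox2* hold an Oct-Sox match without the exact octamer, and that at *Sfrp2* holds both. Matches were concentrated at the centre. The innermost 25 bp on either side of the centre held an Oct-Sox match in 7.06% (6.52 to 7.63) of shared and 2.55% (2.19 to 2.97) of missing regions. At 100 to 125 bp the shares were 0.507% (0.374 to 0.688) and 0.141% (0.0742 to 0.268), and at 125 to 150 bp 0.210% and 0.219%. The lowest share with either motif, 8.48% (7.41 to 9.69), was seen in missing regions that were not bound in high cells, that is, listed for OCT4 in medium alone. Missing regions bound in high and medium held either motif in 12.5% (11.6 to 13.6).

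The ESRRB motif showed the opposite order. It was found in 13.7% (12.9 to 14.6) of missing regions, 7.77% (7.21 to 8.38) of shared regions and 4.41% (3.64 to 5.33) of new regions, against 7.04% (6.66 to 7.43) of downstream windows. Taken for each class alone, the downstream share was 7.65% (7.02 to 8.33) for missing, 6.60% (6.08 to 7.17) for shared and 6.86% (5.90 to 7.97) for new regions. Shared regions thus lay slightly above their own downstream level, and new regions below theirs. Missing regions exceeded shared regions by 5.92 points (4.90 to 6.95). Exact matches to TCAAGGTCA were found in 129 missing regions, 2.02% (1.70 to 2.40), in 52 shared regions, 0.644% (0.491 to 0.843), and in 5 new regions, 0.218% (0.0933 to 0.510), against 0.579% (0.475 to 0.706) downstream. Of the spellings with 1 mismatch, TCAAGGCCA, GCAAGGTCA and CCAAGGTCA were each more frequent in missing than in shared regions (1.68% against 0.780%, 1.36% against 0.507% and 1.28% against 0.545%), while TCAAGCTCA was less frequent (0.423% against 0.904%). TCAAGGCCA also occurs within B1 repeats of the mouse genome, and repeats were not marked in the sequence used. Without matches of that spelling, the shares were 12.2% in missing, 7.06% in shared and 4.15% in new regions. In missing regions ESRRB matches were spread more broadly around the centre than octamers, at 3.60% to 4.10% per 25 bp up to 100 bp on either side and 2.11% in the outermost step, beyond 200 bp.

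**Figure D2:**
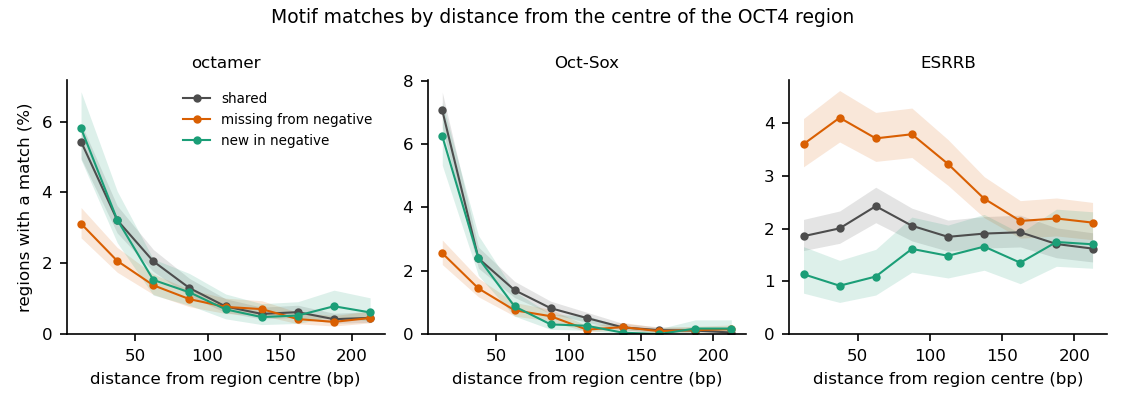
The share of regions with a match (vertical axis, %) by distance of the match from the region centre (horizontal axis, bp, in steps of 25 bp), for the octamer, Oct-Sox and ESRRB motifs in shared, missing and new regions. Bands are 95% Wilson intervals. Oct-Sox matches start at 7.06% in shared and 2.55% in missing regions, and ESRRB matches are most frequent in missing regions at every distance shown.

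Of all medium regions with an ESRRB match, 58.2% (55.7 to 60.7) were missing, and of those with an octamer or Oct-Sox match 30.7% (28.8 to 32.6). Taking both motifs together changed these shares little. Of the regions with an ESRRB match and no octamer or Oct-Sox match, 59.9% (57.2 to 62.5) were missing from negative, against 29.4% (27.5 to 31.4) of those with an octamer or Oct-Sox match only. Regions with neither stood at 45.1% (44.2 to 46.0), and the 181 regions with both at 45.9% (38.8 to 53.1). The share with ESRRB matches only exceeded that with octamer or Oct-Sox matches only both with and without NANOG. Where NANOG was listed in high or medium cells, the missing share was 66.3% (62.2 to 70.2) with ESRRB matches only and 37.3% (32.8 to 42.0) with octamer or Oct-Sox matches only. Where NANOG was in neither, the shares were 55.5% (52.0 to 58.9) and 27.4% (25.4 to 29.6).

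**Figure D3:**
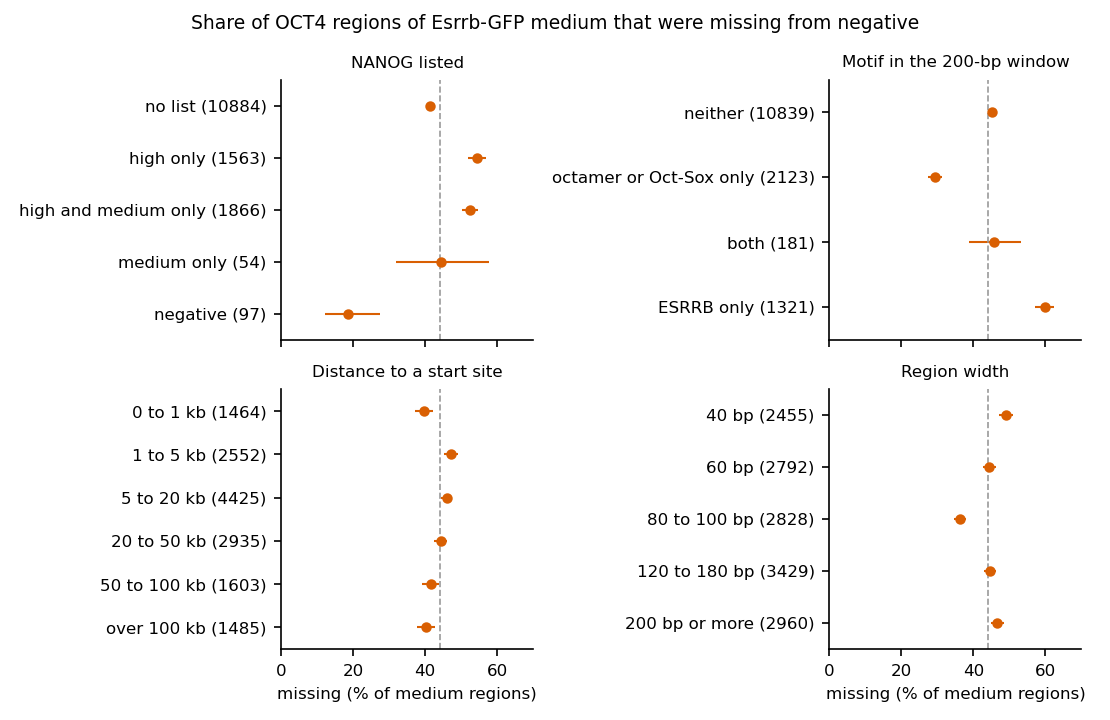
The share of OCT4 regions of Esrrb-GFP medium cells that were missing from negative cells (horizontal axis, %), by NANOG list, motif, distance to a start site and region width, with 95% Wilson intervals and the number of medium regions in brackets. The dashed line is the share over all medium regions, 44.1%, and the points lie from 18.6% with NANOG in negative cells to 59.9% with an ESRRB match only.

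Among the other motifs, the differences were smaller. The KLF motif (GGGCGTGG or GGGTGTGG), bound by KLF2, KLF4 and KLF5, was found in 5.01% (4.50 to 5.57) of missing, 3.53% (3.15 to 3.95) of shared and 3.01% (2.39 to 3.80) of new regions, against 2.28% downstream. The AP-1 motif (TGANTCA), bound by FOS and JUN proteins, was most frequent in new regions at 10.7% (9.46 to 12.0), with 8.84% (8.24 to 9.48) in shared and 7.60% (6.97 to 8.27) in missing regions and 6.11% downstream. The ZIC motif (CAGCAGG) was found at 11.5% to 12.1% in all classes, against 5.27% downstream. The OTX2 motif (TAATCC) did not exceed its downstream share of 8.53% clearly in any class, and was found in 8.74%, 7.39% and 8.52% of shared, missing and new regions. Matches to STAT3 (TTCCNGGAA), TFCP2L1, GRHL (AACCNGGTT) and TEAD (ACATTCC) differed between no pair of classes beyond the interval. For SOX (CCATTGT) new regions lay below missing regions by -1.54 points (-2.55 to -0.428), and for TCF (CTTTGAT) missing lay below shared regions by -0.857 points (-1.55 to -0.154). Of the 13 motifs, 2 were more frequent in missing than in shared regions and 5 less frequent beyond the interval, while between new and shared regions 1 was more and 2 were less frequent.

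**Figure D4:**
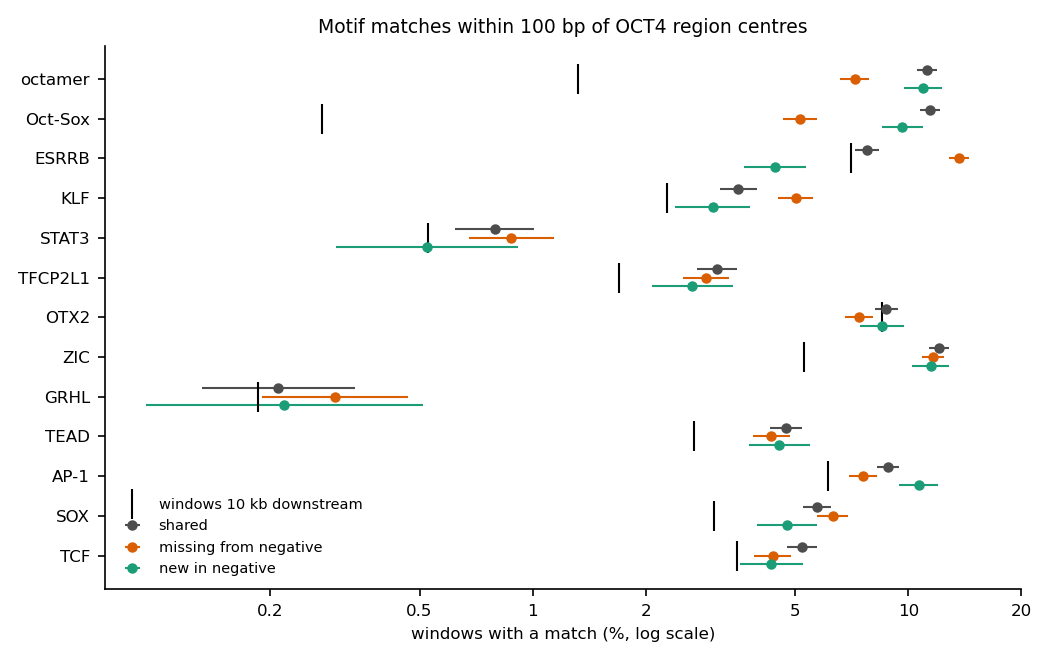
The share of 200-bp windows with a match to each of 13 motifs (horizontal axis, %, log scale) in shared, missing and new OCT4 regions, with 95% Wilson intervals, and in windows 10 kb downstream (vertical bars). Octamer and Oct-Sox matches are lowest in missing regions, ESRRB and KLF matches highest.

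Genes of the naive network had a larger share of missing OCT4 regions than the background. Within 20 kb of the 24 genes of a list of naive pluripotency factors lay 71 OCT4 regions of medium cells, of which 47 were missing from negative cells, 66.2% (54.6 to 76.1), against 44.7% near all annotated genes. The list of 20 core factors and shared regulators, genes that act in naive and later pluripotent cells, had 31 of 85 missing, 36.5% (27.0 to 47.1). Among the naive genes with a medium region, 9 of 22 had all of them missing and 1 had all kept, whereas among the core genes 1 of 19 had all missing and 5 had all kept. Over all 11441 annotated genes with a medium region, 32.5% had all missing and 43.8% had all kept. The core genes, with 5 of 19, thus had all regions kept less often than all genes did. Such counts depend on how many regions a gene has, which was not taken into account. Medium regions with an octamer or Oct-Sox match were missing in 6 of 8 cases near naive genes and in 2 of 15 near core genes, against 30.7% of all medium regions with such a match. With NANOG in high or medium cells the missing share was 19 of 27 near naive genes and 7 of 32 near core genes, against 52.3% of all medium regions with NANOG in those cells. The 1 core gene with all its regions missing was *Otx2*, which also stood in the list of formative and primed genes described below. These lists were chosen with earlier results known, neighbouring genes share regions, and no test of the lists was made.

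*Esrrb* itself had 6 OCT4 regions in medium cells, all in introns, and 4 of them were missing from negative. The missing region printed above holds an octamer and was bound by NANOG in high and medium cells. *Nanog* kept 2 of 4 regions. The kept region at its start site, 420 bp wide, was the only one of the 4 with NANOG listed in negative cells, and both missing regions lay 4246 to 4786 bp upstream of the start site. By ChIP-PCR the paper still detected OCT4 at the *Nanog* enhancer and promoter in negative cells. That enhancer was not matched to the regions here, and missing means absent from the list, not absence of OCT4. *Klf2* kept 1 of 5 regions, 2771 bp upstream of the start site, and lost 4. The single regions of *Klf4* and *Klf5*, 200 and 700 bp wide and both downstream of the gene, were missing. *Tfcp2l1*, which encodes another factor of the naive network, lost both of its regions.

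*Zfp42*, a marker of naive cells also known as *Rex1*, lost all 4 of its regions. The region 148 bp from its start site held matches to the octamer, Oct-Sox, ESRRB and KLF motifs, and it was listed for OCT4 in medium cells only. *Dppa5a*, a gene expressed in early embryos and ESCs, lost 8 of 10 regions, the largest number among genes of this list. *Dppa2* and *Dppa4*, neighbouring genes, share 2 regions, and both were missing. *Tet2*, a dioxygenase that oxidises methylated cytosine, lost 3 of 3 and had 1 new region, and *Prdm14*, a repressor of differentiation genes, lost 2 of 2 and had 1 new region 1417 bp from its start site. In contrast, *Tdgf1*, a co-receptor of NODAL signalling, and *Zscan10* each kept 4 of 5 regions. The region of *Esrra*, a relative of *Esrrb*, was kept. *Tbx3* kept 2 of 3 and had 2 new regions, and *Nr5a2* kept 2 of 5. *Dppa3* also kept 2 of 5, including the region printed above, and had missing regions 27 and 137 bp from its start site.

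At the genes of OCT4 and its partner, binding was largely kept. *Sox2* kept 6 of 6 regions, 3 of which were bound by NANOG in high cells. *Pou5f1* kept 4 of 5 regions, and the kept region 1961 bp upstream of its start site, printed above, holds an Oct-Sox match. *Phc1*, a Polycomb protein gene, kept 4 of 4, *Trim71* kept 5 of 6 and *Tcf7l1*, a transcriptional repressor, kept 6 of 9. *Sall4* kept 3 of 5 and *Sall1* 3 of 6. Losses exceeded retention at *Jarid2*, a Polycomb cofactor, with 5 of 8 missing, and at *Mybl2*, a cell cycle regulator, with 5 of 8. The same held at *Foxd3*, with 3 of 4, at *Zfp281*, with 2 of 3, and at *Otx2*, with its single region missing. The *Mybl2* region printed above was missing and holds the ESRRB spelling GCAAGGTCA on the minus strand.

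**Figure D5:**
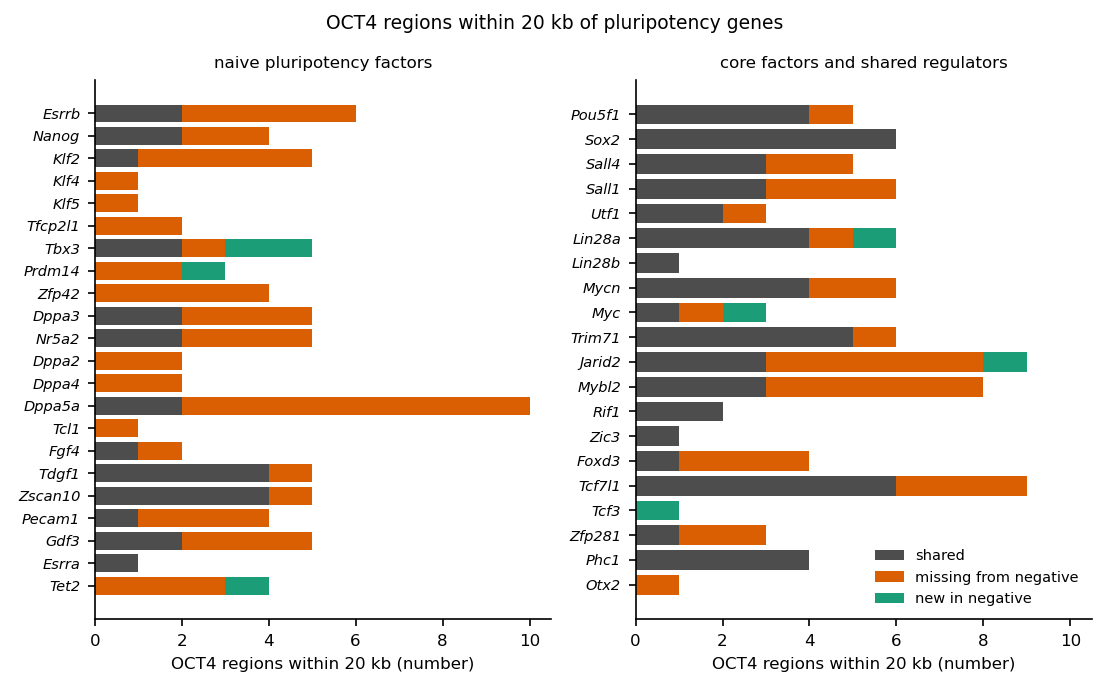
The number of OCT4 regions within 20 kb of each gene (horizontal axis), coloured by class, for the naive pluripotency factors and for the core factors and shared regulators that have a region. *Zfp42*, *Klf4*, *Klf5* and *Tfcp2l1* show missing regions only, whereas *Sox2* shows 6 kept regions and *Pou5f1* 4 kept and 1 missing.

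Genes that mark formative and primed cells, the stages that follow the naive state, lay near the background, with 30 of 62 medium regions missing, 48.4% (36.4 to 60.6). *Fgf5*, a growth factor gene that rises on exit from the naive state, kept its single region, which was bound by NANOG in all 3 populations. *Dnmt3b*, a DNA methyltransferase gene, kept 3 of 4 regions, and *Pou3f1* kept 2 of 2 and had 1 new region. *Otx2*, whose product acts with OCT4 in primed cells, had its single region, with an octamer, missing. The TGF-beta family genes *Nodal* and *Lefty1* lost 3 of 5 and 4 of 6 regions. *Lefty1* also had 1 new region 72 bp upstream of its start site, between missing regions on either side. *Etv5*, a target of FGF signalling, lost 4 of 9 and *Etv4* 2 of 2. *Lef1*, a factor of the WNT pathway, lost 3 of 6, including the Oct-Sox region printed above. At *Sfrp2*, a secreted WNT modulator, the new region 42 bp upstream of the start site holds an Oct-Sox match and was bound by OCT4 in high cells, so it was absent from medium only.

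Near germ layer regulators, 26 of 67 medium regions were missing, 38.8% (28.0 to 50.8), and 19 of 60 negative regions were new, 31.7% against 21.1% near all annotated genes. Of the medium regions with an octamer or Oct-Sox match, 0 of 9 near germ layer regulators and 3 of 4 near formative and primed genes were missing, against 30.7% of all such regions. Signalling components had 24 of 61 missing, 39.3% (28.1 to 51.9). Of these 61 regions, 29 lay near *Fgfr2*, a fibroblast growth factor receptor gene, and no other gene of the list. Its body in the annotation used is very long, from 137305965 to 140315033 on chromosome 7. Regions up to 2945952 bp from its annotated start site were thus counted to it. Whether all of that stretch belongs to *Fgfr2* was not checked. Without *Fgfr2* the count was 17 of 32, 53.1% (36.4 to 69.1). Housekeeping genes had 8 of 17 missing, 47.1% (26.2 to 69.0). Over all genes, 12410 had an OCT4 region of medium or negative cells within 20 kb. Of these, 4411 had shared regions only, 3377 had missing regions only and 969 had new regions only.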

How the data were processed

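OCT4 ChIP-Seq of sorted E-GFPd1 ESCs was compared between Esrrb-GFP medium and negative fractions, as the labels give them, with 1 library per condition. Per the labels and the study's methods, the authors aligned reads in GeneProf (the submitters' processing notes name Bowtie and mm9), found peaks with SISSRs, joined peaks that overlapped between any of the datasets, and dropped a region from a population below 50% of the strongest depth-scaled signal. The deposited lists hold chromosome, start and end only, as coordinates and not a score, so depth is unknown.

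Regions were matched by exact coordinates. No interval overlapped another. Genes came from GENCODE for NCBIM37 (37310 genes, 22380 protein-coding), a region was assigned to every gene whose body lay within 20 kb, and distances to start sites were taken from region centres. Of 143 gene list entries, 142 matched a gene, 3 of them through older symbols, and Sox1 did not. Motifs were searched on both strands within 100 bp of the centre and 10 kb downstream, where 14 windows with unknown bases were left out. Named genes were members of the lists, the 5 protein-coding genes with the most regions of each class, and genes that the study names. Printed sequences are the interval of at most 300 bp with a match inside it nearest the start site, 1 per gene. Those shown were picked after their values were seen. The members and lists were chosen with earlier results of these data known. Shares have 95% Wilson and differences 95% Newcombe intervals.

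Alternatives changed the overlap rule, merging, width, chromosomes, NANOG and OCT4 status, motif windows and mismatches, GC content, and distances to genes. Leaving out ESRRB matches spelled TCAAGGCCA, and leaving *Fgfr2* out of the signalling list, were added after seeing the data. Python 3.11.15, pandas 2.3.3, scipy 1.17.1 and pysam 0.24.0 were used. On simulated data with 5000 regions and implanted motifs, 12 of 12 checks were passed.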

Additional observations from a re-analysis of the deposited data

How the results depend on the processing

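No paired analysis was possible because only 1 library per condition exists, and no replicate could be left out. Of the 85 alternative values over 19 results, 41 stayed within the interval of the reported value and 44 moved out of it. Octamer or Oct-Sox matches were more frequent in shared than in missing regions in 6 of 6 alternatives, ESRRB matches were more frequent in missing than in shared regions in 7 of 7, and NANOG in medium cells in 3 of 3. The alternative that matched regions by an overlap of 1 bp could not change any value, because no interval overlapped another. It is counted among the 41 values and among the 3 for NANOG. The missing share near naive genes stayed above 44.1% in 3 of 3. Near signalling components it was 53.1% without *Fgfr2*.

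The missing share of medium regions and the new share of negative regions came to 42.0% and 20.4% with regions merged within 500 bp, 41.6% and 16.4% with only regions bound in high, and 41.5% and 25.2% with only regions in no NANOG list. The new share was 14.4% among regions of at least median width (wide regions). The share of missing and shared regions with NANOG in medium cells was 26.7% and 19.9% among wide regions and 21.3% and 15.5% among regions bound in high.

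Octamer or Oct-Sox shares in shared, missing and new regions were 15.1%, 7.71% and 15.0% within 50 bp, 23.1%, 14.8% and 21.6% within 250 bp, and 12.2%, 7.45% and 12.1% with fewer mismatches. Wide new regions had 16.3%. ESRRB shares were 3.48%, 6.77% and 1.92% within 50 bp, 17.0%, 25.1% and 12.4% within 250 bp, and 0.644%, 2.02% and 0.218% without a mismatch. In shared and missing regions they were 8.68% and 16.9% among wide regions, 6.59% and 10.9% in no NANOG list, and 7.06% and 12.2% without the spelling TCAAGGCCA.

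The share within 1 kb of a start site came to 8.84%, 7.52% and 8.82% of shared, missing and new regions with protein-coding genes only, and to 13.4% of wide new regions. Within 5 kb it was 27.7%, 27.9% and 26.2%, where missing regions were no longer lowest. The cause of these moves was not tested beyond each alternative's own construction. Depth is unknown, so a region just under the authors' threshold counts as absent.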

Other observations

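Among the genes with the most new regions were *Hoxc9* (7 new, 1 shared, 0 missing), *Hoxc10* (6 new, 4 shared, 1 missing) and *Hoxc8* (6 new, 2 shared, 0 missing), neighbours that share most of these regions. The others were *Fgfr2* (6 new) and *Hoxb3* (5 new, 4 shared, 3 missing). The new regions at *Fgfr2* lay inside its very long annotated body, and whether they belong to that gene was not checked. HOX proteins are homeodomain factors that pattern the body axis. All 40 annotated entries taken as *Hox* genes (12 *Hoxa*, 10 *Hoxb*, 9 *Hoxc* and 9 *Hoxd*) were then counted together, a group chosen after its values were seen. Whether each entry encodes a HOX protein was not checked. Within 20 kb of them lay 53 OCT4 regions of negative cells, of which 21 were new, 39.6% (95% interval 27.6 to 53.1), against 22.1% over all negative regions. Near the *Hoxc* genes 9 of 16 were new, near *Hoxb* 6 of 19, near *Hoxa* 3 of 7 and near *Hoxd* 3 of 11. Of the 48 medium regions near *Hox* genes, 16 were missing, 33.3%. Of the 21 new regions, 6 were bound by OCT4 in high cells, against 48.9% of all new regions, and 1 held an octamer or Oct-Sox match, against 18.6% of all new regions. Their median GC content was 55.5%, against 48.0% over all new regions. NANOG was listed in any population at 3 of the 69 OCT4 regions near *Hox* genes, against 22.2% of all 16754 OCT4 regions.

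The genes with the most missing regions were *Gm20388* (19), *Accn1* (9), *Cdh13* (8), *Dppa5a* (8) and *Gsta2* (8). *Gsta2* and *Dppa5a* are neighbours, and *Gm20388*, *Accn1* and *Cdh13* have long annotated bodies, as do the genes with the most shared regions, *Fgfr2* (22), *Gm20388* (19), *Etl4* (15), *Arfip1* (9) and *Ebf1* (9).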
